A study of Mus musculus with 6 samples.

Results

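The miR-28 and miR-151 microRNAs of the mouse heart were followed through the 4 mature arms miR-28a-5p, miR-28a-3p, miR-151-5p and miR-151-3p. They were taken by name from a table of 1966 mature miRNAs, and all 4 were found and all 4 passed the low-count filter. Hearts of male wild-type mice were compared 8 weeks after the operation. In transverse aortic constriction (TAC) the aortic arch is tied to a smaller bore so that the left ventricle works against a raised pressure, and sham mice do not receive the tie. Each group held 3 mice (sham 47, 68 and 69, and TAC 29, 78 and 81, named by animal number), each mouse gave 1 library of whole heart tissue, and neither strain nor age is stated in the labels.

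A microRNA is cut from a hairpin, and either arm of the hairpin (5p or 3p) can be loaded into an Argonaute protein, where bases 2 to 8, the seed, select target mRNAs. miR-28 and miR-151 are grouped in 1 family with miR-708, and their hairpins are described as descended from LINE-2 repeats. Both lie in introns of genes of cell adhesion. Lpp, the host of miR-28a, encodes a LIM-domain protein of focal adhesions that is abundant in smooth muscle. Ptk2, the host of miR-151, encodes focal adhesion kinase, which takes part in the response of heart muscle to load. miR-151-3p is described in skeletal muscle as a regulator of Atp2a2, the calcium pump of slow muscle and heart.

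The sequences of miR-28a and its relatives are shown because seed sharing shows which other rows can be set beside the arms of miR-28a, and the comparison of seeds covers these arms alone. They come from RefSeq, build GRCm38.p6, with the seed in capitals.
miR-28a-5p: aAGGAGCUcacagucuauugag
miR-708-5p: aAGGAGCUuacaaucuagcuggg
miR-28b: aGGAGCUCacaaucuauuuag
miR-28a-3p: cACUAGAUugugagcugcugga
miR-708-3p: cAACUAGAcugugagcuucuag
miR-28a-5p and miR-708-5p had the same seed, and the first 8 bases of both were identical. Of 1675 rows with a sequence, 2 had the seed AGGAGCU, these being miR-28a-5p and miR-708-5p themselves, and 1, miR-28a-3p itself, had ACUAGAU. miR-28b starts 1 base further in, so its seed is another one. Read from base 2 of miR-28a-5p it had 2 mismatches in 21 bases. The 3p arms of miR-28a and miR-708 shared a run of 8 bases, ugugagcu, outside their seeds. Their seeds differed, but read 1 base apart these also shared the run ACUAGA.

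On mm10, the coordinates of the table put miR-28a-5p at chr16:24827868-24827889 and miR-28a-3p at chr16:24827908-24827929, both on the plus strand. GENCODE M21 has them in an intron of Lpp of 79965 bases, between the nearest annotated exons. miR-151-5p lay at chr15:73254855-73254875 and miR-151-3p at chr15:73254820-73254840, on the minus strand, in an intron of Ptk2 of 13786 bases. Both hairpins are annotated on the strand of their host. On the opposite strand the intron of the antisense gene 1700085D07Rik also covers miR-151. Each arm had 1 place in the genome, and 0 other rows overlapped any of them on either strand.

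Library totals ran from 1226187 counts in TAC 81 to 3509001 in sham 47, and each of the 3 TAC totals was below each of the sham totals. Of 354 miRNAs tested, 108 were called (30.5%), 19.2% higher and 11.3% lower in TAC. The 4 cardiomyocyte miRNAs of the marker list, miR-1a-3p among them, were abundant and all 4 rose (2 with library totals), with a summed level of 151714 to 182942 CPM in sham and 273336 to 325687 in TAC. The 3 mesenchymal markers fell (15166 to 20233 against 7053 to 9490 CPM). Of the smooth muscle markers 1 of 2 rose (34101 to 42650 against 58658 to 61654 CPM), of the red blood cell markers 1 of 2 (963 to 1122 against 1597 to 2994 CPM) and of 4 tested leukocyte markers 1 (992 to 1385 against 1357 to 1489 CPM). The endothelial miR-126a-3p and the leukocyte miR-142a-3p were listed at 0 in every library and overlap an opposite-strand row. The part of these shifts in the values below was not tested, and in whole tissue fewer cells of a type and less RNA per cell cannot be told apart.

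None of the 4 arms was called higher or lower in TAC by edgeR, and DESeq2 and limma-voom also called 0 of them. Values are CPM, reads scaled to a common library size, after TMM scaling, which sets the bulk of miRNAs level between libraries, and a call needed an adjusted p under 0.05 in edgeR's quasi-likelihood test over all 354 miRNAs. The 5p arms had log2 changes above 0 and the 3p arms below 0, with a median of -0.04 over the 4 against 0.07 over all miRNAs tested. In all 4 the sham and TAC libraries overlapped after TMM scaling, whereas 51.4% of tested miRNAs had groups that did not. Unadjusted p ran from 0.102 to 0.593, with 0 of 4 under 0.05, and the ranks by p among the 354 were 190 (miR-151-5p), 197 (miR-151-3p), 237 (miR-28a-3p) and 312 (miR-28a-5p).

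miR-151-3p, the abundant arm of miR-151, was at 17380, 16496 and 15213 CPM in sham 47, 68 and 69. In TAC 29, 78 and 81 it was at 14678, 15885 and 12297 CPM. TAC 81 was the lowest of the 6 hearts, and TAC 78 lay inside the sham range. The means were 16363 ± 1090 and 14286 ± 1826 CPM (SD, n = 3 each). The log2 change was -0.20 ± 0.11 (SE; edgeR adjusted p = 0.197), a fold of 0.873 with a 95% interval of 0.735 to 1.04, and -0.10 without TAC 81. With 13090 to 67988 counts behind each value, counting error was at most 0.874% of it, against a spread between mice of 6.66% in sham and 12.8% in TAC.

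miR-151-5p, the other arm of the same hairpin, was at 53.9, 49.7 and 56.4 CPM in sham 47, 68 and 69. In TAC 29 and 78 it was at 72.6 and 72.5 CPM, above every sham heart, and in TAC 81 at 53.5 CPM, within the sham range. The means were 53.3 ± 3.39 and 66.2 ± 10.97 CPM (SD, n = 3 each). The log2 change was 0.32 ± 0.17 (edgeR adjusted p = 0.19), a fold of 1.25 with an interval of 0.948 to 1.64, and 0.44 without TAC 81. TAC 81 gave 57 counts for this arm, a counting error of 13.2%.

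miR-28a-3p was at 113, 131 and 138.6 CPM in sham 47, 68 and 69, against 119, 114 and 94.9 CPM in TAC 29, 78 and 81. The 5p arm, miR-28a-5p, was at 39.9, 46.7 and 55.2 CPM in the sham hearts and at 47.2, 43.7 and 62.9 CPM in the TAC hearts, in the same order. TAC 81 was thus the lowest of all hearts for the 3p arm and the highest for the 5p arm. miR-28a-3p averaged 127.7 ± 13.2 CPM in sham, against 109 ± 12.8 CPM with TAC (SD, n = 3 each), a log2 change of -0.22 ± 0.16 (edgeR adjusted p = 0.297). The fold was 0.859 with a 95% interval of 0.67 to 1.101, and the log2 change without TAC 81 was -0.13. miR-28a-5p averaged 47.3 ± 7.68 and 51.3 ± 10.3 CPM (SD, n = 3 each), a log2 change of 0.11 ± 0.20 (edgeR adjusted p = 0.673). Its fold was 1.08 with an interval of 0.788 to 1.48, and without TAC 81 its log2 change was -0.05.

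**Figure D1:**
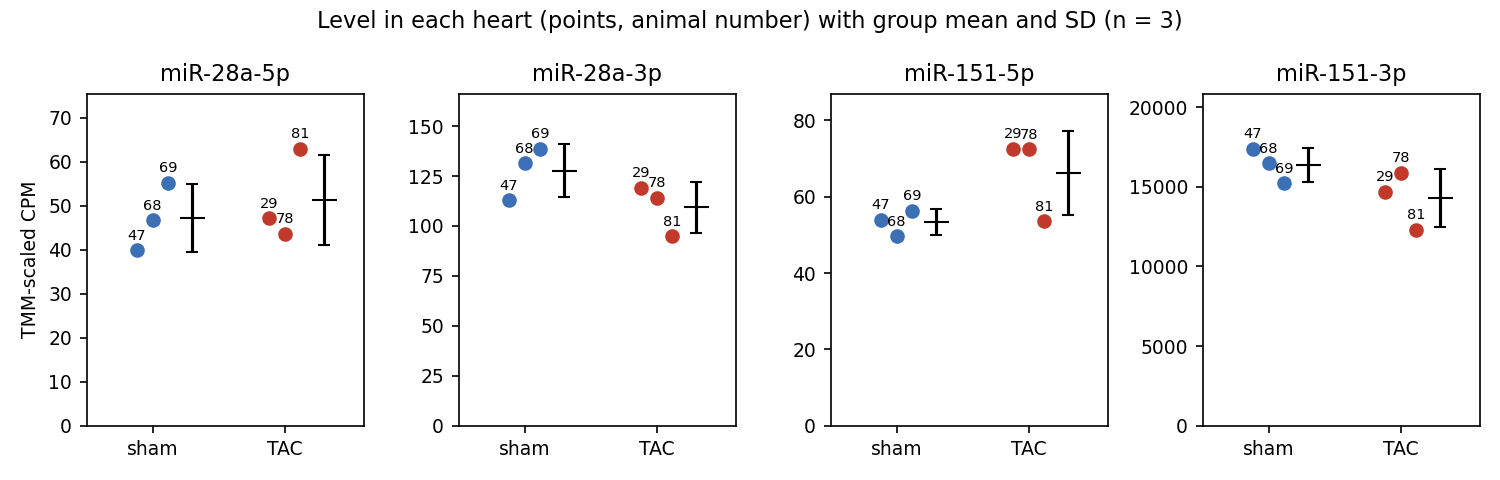
Level of each arm in each heart, in TMM-scaled CPM on axes that start at 0, with sham in blue, TAC in red, animal numbers beside the points and the mean and SD (n = 3) as black bars. The groups overlap in every panel, and TAC 81 is the lowest heart for both 3p arms and the highest for miR-28a-5p.

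**Figure D2:**
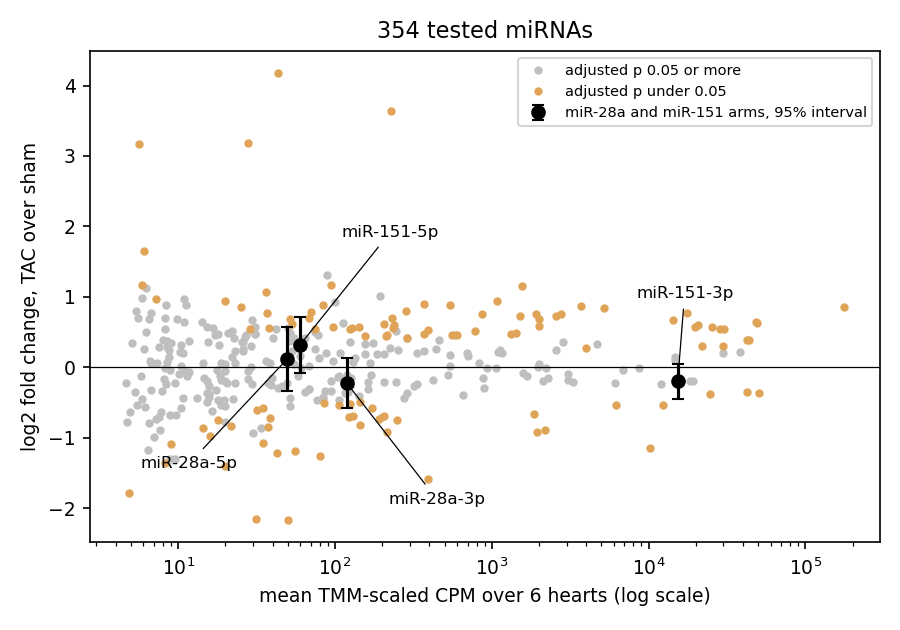
Log2 fold change of TAC over sham against mean TMM-scaled CPM (log axis) for the 354 tested miRNAs, with called miRNAs in orange and the 4 arms in black with 95% intervals. The intervals of all 4 arms include 0, at a mean of 15325 CPM for miR-151-3p and of 49.3 to 119 CPM for the other arms.

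The size of the changes of all 4 arms depended on the scaling. Without any scaling factor, that is with library totals, the median of all tested miRNAs moved from 0.07 to -0.23 on the log2 scale, and 25 were then called higher and 102 lower, against 68 and 40 with TMM. In that setting miR-151-3p was called lower at -0.50 (edgeR adjusted p = 0.0111) and miR-28a-3p at -0.52 (edgeR adjusted p = 0.0394). miR-151-5p was then at 0.012 (edgeR adjusted p = 0.967) and miR-28a-5p at -0.20 (edgeR adjusted p = 0.463). In CPM of library totals miR-151-3p was at 17166.5 to 19375.3 in sham against 10675.4 to 14418.6 in TAC. miR-28a-3p was at 126 to 156 against 82.4 to 110. The groups of both 3p arms thus did not overlap there, while those of both 5p arms did. The share of all miRNAs that separate with library totals was not counted, so whether the separation of the 3p arms is unusual there is not known. With TMM that share was 51.4% of tested miRNAs. A change of scaling factors shifts all miRNAs by nearly the same amount, so values relative to the median of all tested miRNAs hardly move by construction. On that scale miR-151-3p was at -0.27 both with TMM and with library totals, and miR-28a-3p at -0.29 both times. The same comparison put miR-151-5p at 0.24 with TMM and 0.25 with library totals, and miR-28a-5p at 0.04 and 0.03. miR-151-3p was also called lower with totals that leave out the 5 most abundant miRNAs (-0.41, edgeR adjusted p = 0.021) and without a low-count filter (-0.35, edgeR adjusted p = 0.0261). In these settings 82 of 354 and 65 of 1100 tested miRNAs were called lower, and the median of all tested was -0.14 each time.

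**Figure D3:**
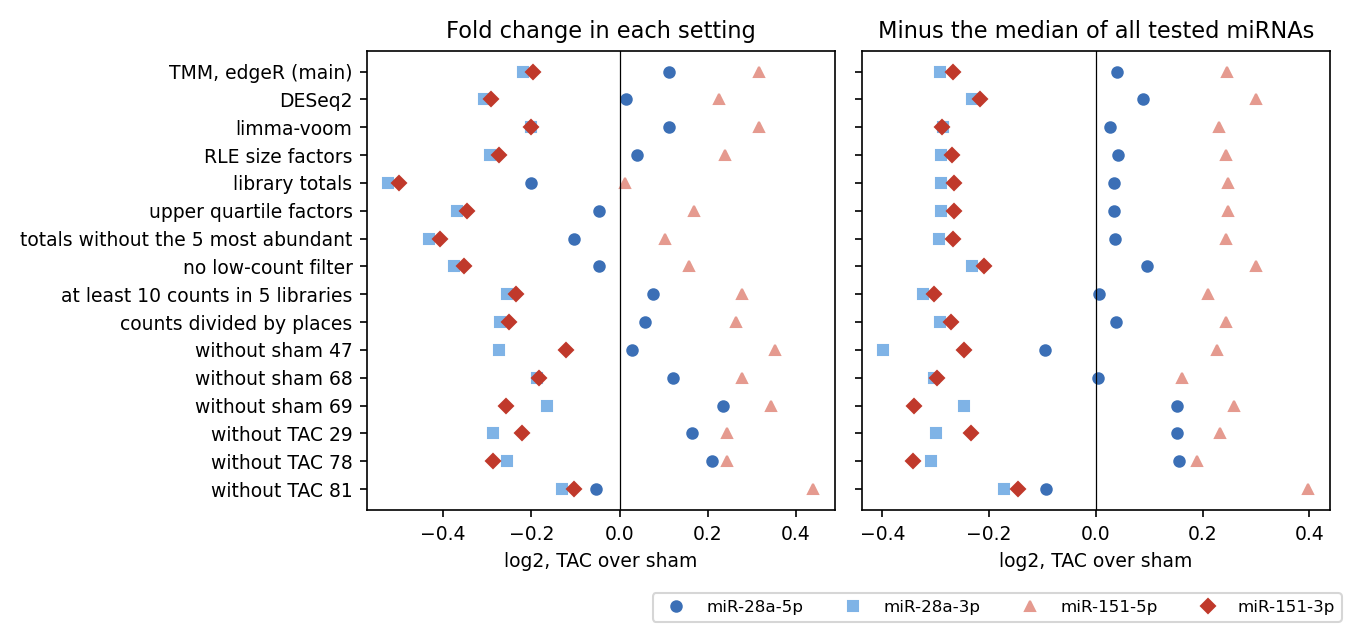
Log2 fold change of TAC over sham for the 4 arms (symbols) in each setting of the analysis and with each mouse left out (rows), as fitted on the left and minus the median of all tested miRNAs on the right. On the left the arms shift together with the scaling, to -0.50 for miR-151-3p with library totals. On the right this common shift is subtracted, so by construction miR-151-3p is at -0.27 with TMM and with library totals.

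The order of levels was the same in both groups. miR-151-3p ranked 21st by mean CPM among the 1966 rows, miR-28a-3p 143rd, miR-151-5p 182nd and miR-28a-5p 198th. Mature miRNAs of 21 or 22 bases are covered by 1 read, so these CPM values need no correction for length, although ligation and amplification can favour some sequences, which was not tested. miR-151-5p and miR-28a-5p, neighbours in this order, had overlapping ranges in both groups, with 49.7 to 56.4 against 39.9 to 55.2 CPM in sham and 53.5 to 72.6 against 43.7 to 62.9 CPM in TAC. Within a library, miR-151-5p was the higher of the pair in 5 of 6 hearts, TAC 81 being the exception. miR-28a-3p and miR-151-5p did not overlap in either group.

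The arms of 1 hairpin come from 1 precursor, and their ratio within a library is free of any scaling between libraries. Of the reads of miR-151, the 5p arm made up 0.309%, 0.3% and 0.369% in sham 47, 68 and 69, against 0.492%, 0.455% and 0.434% in TAC 29, 78 and 81. Every TAC heart was above every sham heart, a separation seen in 29.5% of the 88 hairpins that could be tested. The exact 95% binomial intervals, which cover counting error only, were 0.312% to 0.435% in sham 69 and 0.329% to 0.561% in TAC 81, and these overlapped. The 3p arm exceeded the 5p arm 308-fold ± 33.5 in the sham hearts and 217-fold ± 13.8 in the TAC hearts (SD, n = 3 each). The counter and strand setting behind these counts are not stated, and whether they bear on so large a ratio was not tested. By the ratio of 5p to 3p, miR-151 was the 6th most biased toward 3p of the 88 hairpins.

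In log2 of 5p over 3p, miR-151 went from -8.26 ± 0.16 to -7.75 ± 0.09 (SD, n = 3 each), a difference of 0.50 ± 0.15 with a 95% interval of 0.15 to 0.86. It did not pass adjustment over the 88 hairpins (limma adjusted p = 0.103), and the two-sided exact permutation p over the 6 libraries was 0.1, the smallest that 3 against 3 allows. Of the 43 hairpins with a mean of at least 50 counts in each arm, 6 were called. miR-151 was among them, with the same difference and a limma adjusted p = 0.0339. Leaving out each mouse in turn kept the difference between 0.45 and 0.60, with limma adjusted p from 0.132 to 0.289.

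In miR-28a the 5p arm held 26.1%, 26.2% and 28.5% of reads in sham 47, 68 and 69, against 28.4%, 27.7% and 39.9% in TAC 29, 78 and 81. The 5 hearts other than TAC 81 lay within 26.1% to 28.5%. TAC 81, the shallowest library, gave 67 reads of 5p and 101 of 3p, with an exact 95% interval of 32.4% to 47.7%. The difference in log2 of 5p over 3p was 0.34 ± 0.24, with an interval of -0.23 to 0.90 (limma adjusted p = 0.398), and 0.08 without TAC 81. Of the 88 hairpins 1 was called (1.14%), miR-296, with a shift of 1.71 ± 0.27 toward 5p (limma adjusted p = 0.0357), and 22 had an unadjusted p under 0.05. Behind miR-296, the smallest p-values in each direction belonged to miR-223 and miR-1843b toward 5p (1.14 and 0.62) and to miR-25, miR-30d and miR-3057 toward 3p (-1.13, -0.72 and -1.20), none of which passed. Whether the arm shift of miR-151 differs from that of miR-28a was not tested.

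**Figure D4:**
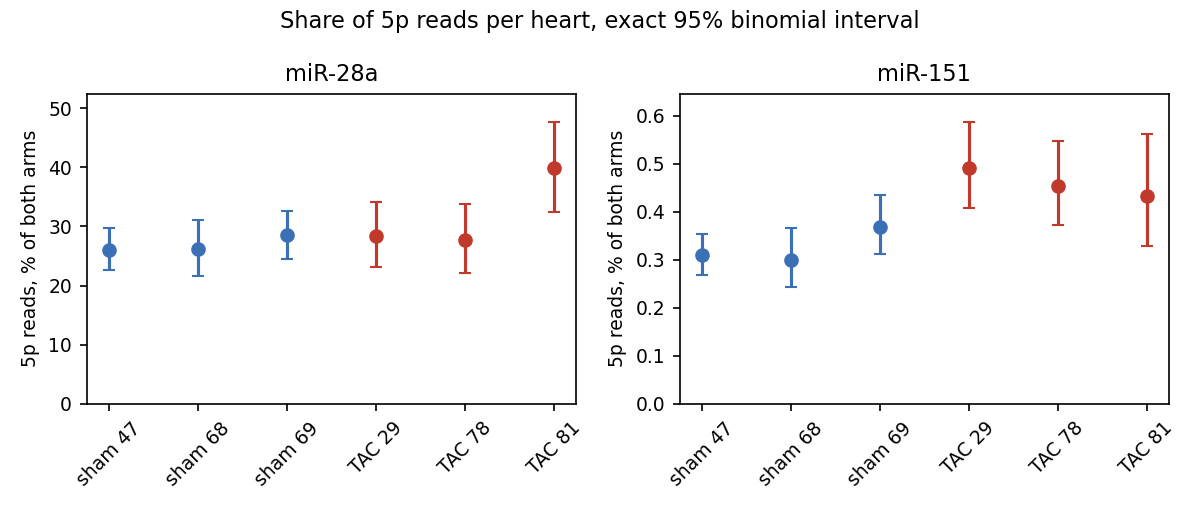
Share of 5p reads among the reads of both arms in each heart, in percent, for miR-28a (left) and miR-151 (right), with exact 95% binomial intervals, sham in blue and TAC in red. miR-151 lies between 0.3% and 0.369% in sham and between 0.434% and 0.492% in TAC, and TAC 81 stands above the other hearts for miR-28a at 39.9%.

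**Figure D5:**
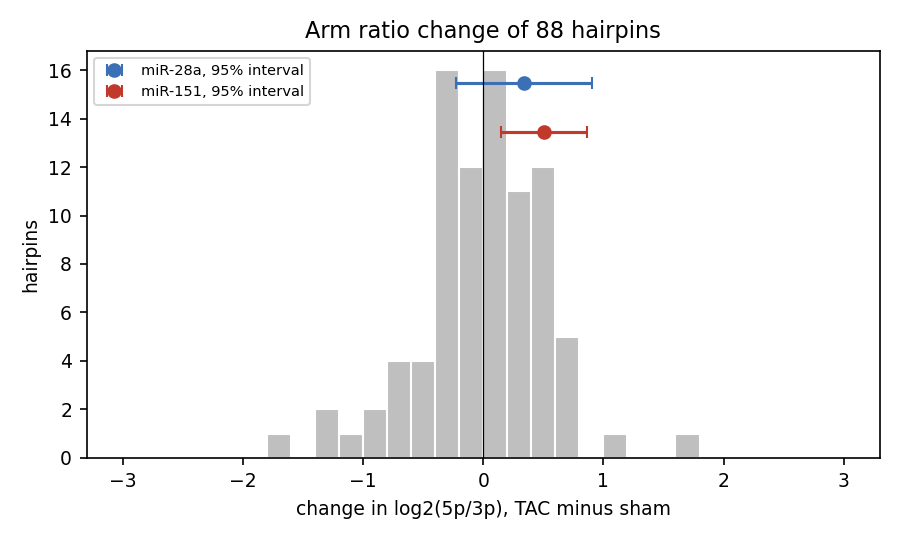
Histogram of the change in log2 of 5p over 3p, TAC minus sham, for 88 hairpins, with miR-28a (blue, 0.34) and miR-151 (red, 0.50) and their 95% intervals drawn above. The interval of miR-151, from 0.15 to 0.86, leaves out 0 and that of miR-28a includes it. These intervals are not adjusted for the 88 hairpins, of which 22 had an unadjusted limma p under 0.05. miR-151 did not pass adjustment (limma adjusted p = 0.103).

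The ratio between the hairpins differed by less than the spread between mice. With both arms summed, miR-151 exceeded miR-28a by 114, 92.7 and 78.7 times in sham 47, 68 and 69, against 88.5, 101 and 78.0 times in TAC 29, 78 and 81. The log2 ratio of miR-28a to miR-151 was -6.56 ± 0.27 among sham hearts and -6.47 ± 0.19 among TAC hearts (SD, n = 3 each), a difference of 0.08 with a two-sided exact permutation p = 0.6. Its sign changed without sham 47 (-0.05) and without TAC 81 (-0.01).

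Across all 6 libraries the arms of 1 hairpin were not positively correlated. For miR-28a this includes TAC 81, the lowest heart for the 3p arm and the highest for the 5p arm. In the other hearts the 5p share of miR-28a stayed within 26.1% to 28.5%, and the correlation without TAC 81 was not computed. The 5p arms had 57 to 211 counts per library, a counting error of 6.88% to 13.2%. Its part in the correlations below was not tested. The Pearson correlation of log2 CPM was -0.26 between miR-28a-5p and miR-28a-3p and -0.04 between miR-151-5p and miR-151-3p, while it was 0.59 between the 3p arms and -0.89 between miR-28a-5p and miR-151-3p (descriptions over 6 points that share library, group and scaling). Among the other 293 tested miRNAs averaging 10 CPM or more, the 3 most like miR-151-3p were miR-341-3p (0.89), miR-671-5p (0.89) and miR-330-3p (0.88). Closest to miR-28a-3p were miR-125a-5p (0.98), miR-490-3p (0.95) and miR-132-5p (0.93). miR-151-5p ran closest to miR-1843b-5p (0.97), miR-1843a-5p (0.94) and miR-547-3p (0.93), and miR-28a-5p to miR-144-3p (0.95), miR-92a-3p (0.90) and miR-181d-5p (0.89). Of these 12 miRNAs, miR-547-3p was called (log2 change 0.54, edgeR adjusted p = 0.0417).

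The relatives were scarce. miR-708-5p, which has the seed of miR-28a-5p and lies in an intron of Tenm4, was seen 20, 8 and 16 times in sham 47, 68 and 69, against 10, 7 and 2 times in TAC 29, 78 and 81. At 5.13 ± 1.13 and 4.21 ± 2.13 CPM (SD, n = 3 each) it had a log2 change of -0.22 ± 0.45 (edgeR adjusted p = 0.717). miR-708-3p was seen 20, 6 and 9 times in the sham hearts, against 12, 22 and 4 times in the TAC hearts, with TAC 78 the highest and TAC 81 within the sham range in CPM, and a log2 change of 1.13 ± 0.49 (edgeR adjusted p = 0.111), which was 0.50 without TAC 78. miR-28b had 1 count in sham 68 and 0 elsewhere, and miR-28c 1 count each in sham 47 and sham 68 and 0 elsewhere. A count of 0 allows up to 3 counts, or 0.855 to 2.45 CPM at these totals, for counting error only.

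As a wider reference, 82 rows were picked by the names of miRNAs taken to lie in introns of protein-coding genes. Host genes were not checked for the list as a whole, and some rows, such as miR-16-5p, count 2 places in the genome. Of the 82 rows, 57 were tested. In TAC 14 rose, 2 fell and 41 did not pass, where over all 354 tested miRNAs 68 rose (19.2%), 40 fell (11.3%) and 30.5% were called in all. The median log2 change was 0.21, against 0.07 over all 354. With library totals 5 of the list rose and 11 fell, with a median of -0.09, while over all tested miRNAs 25 rose and 102 fell, with a median of -0.23. The 3 smallest p-values among those that rose belonged to miR-499-5p, which lies in a myosin heavy chain gene (0.88 ± 0.08), miR-30e-5p of Nfyc (0.84 ± 0.10) and miR-26b-5p of a small phosphatase gene (0.58 ± 0.08). Both that fell were the arms of miR-455, of the collagen gene Col27a1, at -0.93 ± 0.16 (3p) and -0.70 ± 0.17 (5p). The 5p arm lost its call without sham 47, sham 68, TAC 29 or TAC 81 (edgeR adjusted p = 0.0573, 0.065, 0.0505 and 0.0617). In the main test both arms of miR-455 were thus called lower, while neither arm of miR-28a or miR-151 was called. miR-455 was named because its arms were called, so it does not stand for the other hairpins of the list.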

How the data were processed

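Small RNA of 6 hearts was measured as read counts. The authors deposited 1 table of raw counts per mature miRNA, with 1 column per mouse, and all columns were matched to mice (0 left over). Per the submitters' processing notes, build mm10, HISAT2, StringTie and DESeq2 were used, with no role or version given. Which counter, adapter trimming and strand setting were used is not stated. The main test was edgeR 4.0.16 in R 4.3.3 (quasi-likelihood, TMM, filterByExpr, Benjamini-Hochberg over 354 miRNAs), with SE taken as the change over the root of F. Arm ratios, log2((5p + 0.5)/(3p + 0.5)), were tested with limma 3.58.1 over 88 hairpins whose arms share a name and both passed the filter. Alternatives were DESeq2 1.42.0, limma-voom, other scalings and filters, counts divided by places, and leaving out each mouse. Scripts were tested on simulated data. Likeness used log2 CPM with a prior count of 2. Named miRNAs were the arms, same-seed rows, the 3 most alike per arm, the 3 smallest p-values per direction for hairpins, and up to 3 called per direction for intron-hosted rows. miR-547-3p, a called one of the alike, is singled out after its value was seen. The members and lists were chosen with earlier results of these data known.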

Additional observations from a re-analysis of the deposited data

How the results depend on the processing

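No paired analysis was possible because the animal numbers are not shared between the groups. With library totals, 25 miRNAs were called higher and 102 lower, miR-151-3p at -0.50 and miR-28a-3p at -0.52. Upper quartile factors gave 41 and 63, totals without the 5 most abundant miRNAs 35 and 82 (miR-151-3p at -0.41), and no low-count filter 42 and 65 (miR-151-3p at -0.35). In these 4 settings miR-28a-5p changed sign, to -0.20, -0.046, -0.10 and -0.046, without a call. Leaving out 1 mouse gave 64 to 83 calls, 44 to 57 higher and 18 to 29 lower, with the fewest calls without TAC 81 (64) and TAC 78 (69). The arms then lay between -0.29 and -0.10 (miR-151-3p), 0.24 and 0.44 (miR-151-5p), -0.29 and -0.13 (miR-28a-3p) and -0.053 and 0.23 (miR-28a-5p, below 0 without TAC 81), and 0 of them was called. miR-708-5p lay between -0.57 and 0.057 on leaving out 1 mouse. The 15 alternatives kept the direction of miR-151-5p, miR-151-3p and miR-28a-3p, and none called miR-151-5p or miR-28a-5p. Against 1 hairpin with a changed arm ratio, 8 were called with 5 counts added to each arm, 6 among hairpins with at least 50 counts per arm (miR-151 at 0.50, called), 0 with exact permutation tests, which cannot pass at 3 against 3, and 0 to 3 on leaving out 1 mouse, the 3 without TAC 81. The difference in the ratio of miR-28a to miR-151 was -0.19 with 5p arms, -0.020 with 3p arms and between -0.054 and 0.21 on leaving out 1 mouse. The causes were not tested. Depth limits both 5p arms, which had 57 to 211 counts per library.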
